A study of Mus musculus with 8 samples.

Results

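The genes of the mitochondrial ribosome that carry Mrpl or Mrps symbols were described in the livers of mice with a p53 lesion in hepatocytes. Members were all protein-coding genes of the GENCODE M21 annotation of GRCm38 whose symbol starts with Mrpl or Mrps followed by a digit, which gave 78 of the 49585 genes counted, 49 named for the large subunit and 29 for the small subunit. RNA of 8 livers of male mice was sequenced after 3 months on HFCD, a high-fat, choline-deficient diet begun at 21 days of age. The LP+/+ group held 3 livers, which by the labels carried no Cre (Alb-Cre0) and an unrecombined conditional allele of Trp53, Trp53fl/+ in replicates 1 and 2 and Trp53wm-R245W/+ in replicate 3. The LPfl/+ group held 2 livers (Alb-CreTG, Trp53fl/+), in which Cre deletes 1 Trp53 allele. The LP245/+ group held 3 livers (Alb-CreTG, Trp53wm-R245W/+), in which Cre switches 1 allele to the missense mutant R245W and the other allele stays wild type. The Alb promoter drives Cre in hepatocytes and in bile duct cells, so other cells of the liver kept their alleles in every group. All groups received the diet, and no liver on normal food was compared here. By the labels every LPfl/+ and LP245/+ liver carried Cre and no LP+/+ liver did. Cre and the Trp53 lesion therefore cannot be told apart in comparisons against LP+/+.

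Mitochondria translate the few respiratory chain proteins encoded in their own genome on a ribosome of their own. Its rRNAs are made in the mitochondrion, whereas its proteins are encoded in the nucleus, translated in the cytosol and imported. The small subunit binds the mRNA and decodes it, and the large subunit forms the peptide bond and is tethered to the inner membrane near the Oxa1l insertase. Hepatocytes are rich in mitochondria. The symbols do not follow the structure in every case. The products of Mrps18a and Mrps30 sit in the large subunit despite their names, Mrps36 is best known as a component of the alpha-ketoglutarate dehydrogenase complex, and a few proteins of the ribosome, such as Dap3 and Ptcd3, carry other names.

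The members lay on 17 chromosomes, with 11 on chromosome 11, and only 1 pair lay within 100 kb of each other. Mrpl46 and Mrps11 on chromosome 7 pointed away from each other, with start sites 412 bases apart and first exons that overlapped. RefSeq promoters of 300 bases, 250 before and 50 after the start, were matched by symbol to 69 of the 78 members in GRCm38.p6. The letters CCGGAAGT, a site of the ETS family to which GABP belongs, were found on either strand in 16.0% of the 75 member promoters and in 3.89% of all 32851 promoters. AAGATGGC, a YY1 site, was present in 16.0% and 2.75%, and the NRF1 palindrome, the longer run of capitals in Mrpl32, in 4.0% and 0.971%. The CACGTG box bound by MYC was present in 9.33% and 7.15%, TATAAA in 6.67% and 13.6%, and the p53 half-site in 8.0% and 8.36%. A match is a description of the letters and does not show that a factor was bound. Examples are printed for the 250 bases before the start, 5′ to 3′ on the strand of the gene, with matches to the ETS, YY1 and NRF1 letters in capitals on either strand. Mrps26 (chr2:130563507-130563756, plus strand), Mrps36 (chr13:100744660-100744909, minus strand) and Mrpl28 (chr17:26123253-26123502, plus strand) are shown because results below turn on them. Mrpl32 (chr13:14613038-14613287, minus strand) and Mrps27 (chr13:99344536-99344785, plus strand) were chosen after the matches were counted, to show the motifs in place.
Mrps26: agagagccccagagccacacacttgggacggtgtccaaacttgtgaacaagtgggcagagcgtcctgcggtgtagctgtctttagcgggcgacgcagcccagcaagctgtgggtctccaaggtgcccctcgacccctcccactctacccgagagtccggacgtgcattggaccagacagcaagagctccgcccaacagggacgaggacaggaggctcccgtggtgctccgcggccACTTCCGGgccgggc
Mrps36: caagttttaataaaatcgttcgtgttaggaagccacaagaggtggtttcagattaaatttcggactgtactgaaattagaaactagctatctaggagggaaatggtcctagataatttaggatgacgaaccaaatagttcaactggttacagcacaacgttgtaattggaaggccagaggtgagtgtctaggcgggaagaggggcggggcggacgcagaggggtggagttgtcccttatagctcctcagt
Mrpl28: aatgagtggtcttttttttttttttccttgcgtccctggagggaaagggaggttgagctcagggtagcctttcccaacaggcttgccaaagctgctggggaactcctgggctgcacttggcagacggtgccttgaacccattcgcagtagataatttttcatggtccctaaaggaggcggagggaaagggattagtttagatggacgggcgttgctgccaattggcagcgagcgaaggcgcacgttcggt
Mrpl32: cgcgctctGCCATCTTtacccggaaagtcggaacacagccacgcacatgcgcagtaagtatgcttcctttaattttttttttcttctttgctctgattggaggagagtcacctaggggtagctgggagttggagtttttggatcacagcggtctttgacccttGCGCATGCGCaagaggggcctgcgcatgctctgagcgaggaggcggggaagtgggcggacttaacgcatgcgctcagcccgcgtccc
Mrps27: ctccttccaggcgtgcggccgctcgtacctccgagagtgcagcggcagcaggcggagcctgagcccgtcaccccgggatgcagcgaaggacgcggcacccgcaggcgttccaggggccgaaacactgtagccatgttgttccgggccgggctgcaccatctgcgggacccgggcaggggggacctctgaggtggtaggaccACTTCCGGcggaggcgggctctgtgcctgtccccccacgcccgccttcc
The ETS match of Mrps26 began 15 bases before the start and that of Mrps27 49 bases before it. Mrpl32 held an NRF1 match 87 bases and a YY1 match 242 bases before the start. Mrps36 and Mrpl28 held no match to any of the motifs searched. GC content of these 250 bases ran from 45.6% in Mrps36 to 71.6% in Mrps27.

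The libraries held between 26304526 and 31370714 counts, and levels are given as CPM, the share of a library's counts after TMM scaling. The 78 members together took between 0.176% and 0.204% of the counts of a liver. Of the members, 75 had at least 100 counts in every liver, and 77 passed edgeR's filter on low counts. The defining hepatocyte markers summed to between 111000 and 158000 CPM, while the 3 skeletal muscle markers stayed at 3 counts or fewer in each liver. Cdkn1a, a p53 target and cell cycle inhibitor, was lower in LP245/+ than in LP+/+ (log2 fold change -2.91, standard error 0.27, edgeR adjusted p = 0.0155), and Trp53 itself had a log2 fold change of 0.24 (adjusted p = 0.883) there. The Cdkn1a value ran from -3.09 to -2.68 without any 1 liver, and its edgeR adjusted p was 0.103 without LP+/+ replicate 3, 0.203 without LP245/+ replicate 2 and 0.0596 with the replicate number as a block, so that it was not called in those fits. Livers are mixtures of cells, so fewer cells of a type and less RNA per cell cannot be told apart.

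Levels between genes were compared per kilobase (kb) of merged exons. The median level was 12.4 CPM per kb over the 48 large subunit members that were tested and 6.59 CPM per kb over the 29 of the small subunit. On the length of the principal transcript, a scale added after the data were seen, the medians were 19.0 and 13.8 CPM per kb. The highest large subunit members were Mrpl34 (40.5 CPM per kb of merged exons), Mrpl41 (27.4) and Mrpl27 (26.8), and the highest of the small subunit were Mrps21 (35.5), Mrps7 (28.4) and Mrps12 (22.9). Mrps12 belongs to the decoding centre, and Mrpl41 has been described as a partner of p53 in growth arrest. The order depended on the length used. On the principal transcript Mrpl42 came first with 67.6 CPM per kb, Mrps21 reached 53.7 and Mrpl34 40.5, and Mrpl42 is named here after its values were seen.

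At the low end, Mrpl53 (ENSMUSG00000030037.9, chromosome 6, 83109040 to 83109939, plus strand) had 0 counts in all 8 livers and could not be tested. A count of 0 allows a level of up to 0.0956 to 0.114 CPM, depending on the liver, for counting error only. Of its exon bases, 88.0% are shared on the same strand with the gene model Gm42688, which had between 8 and 28 counts. Mrps34 (ENSMUSG00000038880.13, chromosome 17, 24895116 to 24897502, plus strand), whose product is needed for a stable small subunit, shares 77.8% of its exon bases, on the same strand with Nme3 and on the opposite strand with Mapk8ip3. Nme3 had 0 counts in every liver, and Mapk8ip3 had 397 to 705. Mrps25, the third member with more than 50% shared, had 69.8% of its exon bases on the opposite strand of Nr2c2 and a level of 1.95 CPM per kb of merged exons. These 3 members were the lowest of the 78 on the principal transcript, at 0, 1.83 and 2.11 CPM per kb, but not on merged exons. There Mrpl23 lay below Mrps34 (0.812), and Mrpl23 and Mrpl33 (1.32, with 3.56% shared) lay below Mrps25. Among the 45 members that share no exon base, Mrpl23 was lowest, at 0.334 CPM per kb of merged exons and 2.35 on the principal transcript.

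**Figure D1:**
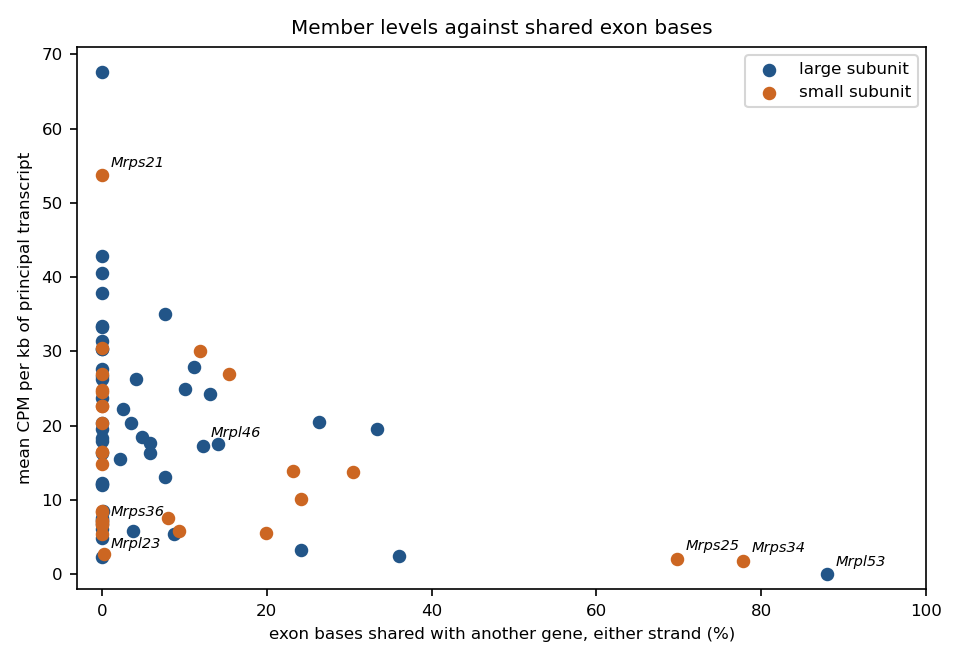
Mean level of each of the 78 members over the 8 livers, in CPM per kb of principal transcript, against the percentage of its exon bases that another gene also covers on either strand. Points are genes, blue for the large and orange for the small subunit. Mrps25, Mrps34 and Mrpl53, with 69.8%, 77.8% and 88.0% shared, sit at or below 2.11 CPM per kb.

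Over all protein-coding genes, the median count was low where more than 50% of the exon bases were shared and lowest where almost the whole gene was. Of the 142 genes with more than 50% and up to 95% of their exon bases shared on the same strand alone, 35.9% had at most 3 counts over the 8 livers, and of the 142 with that much shared on the opposite strand alone, 23.2% did. The values were 31.5% and 29.1% for genes with at most 5% shared, 20.0% and 12.3% for those with more than 5% and up to 50%, and 91.7% and 91.5% for the 109 and 47 genes with more than 95% shared. The median of the mean count per liver was 24.5 and 37.1 at up to 5% shared and 57.9 and 161 between 5% and 50%, but 1.62 and 8.81 between 50% and 95%, the range in which the total shares of Mrpl53, Mrps34 and Mrps25 lie. Mrps34 shares 37.0% on the same and 63.4% on the opposite strand, and Mrpl53 also shares 1.9% on the opposite strand. Neither is therefore shared on 1 strand alone. The strand used for counting is not given in the sources used here, and whether the counting lowered Mrpl53, Mrps34 or Mrps25 was not tested. Mrpl23, Mrps36 and Mrpl48 have processed pseudogenes with Mrp symbols, which held 0 to 7 counts per liver, and whether reads that match both copies were lost was not tested.

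The members varied little between livers. The median coefficient of variation over the 8 livers was 8.85% for the large and 8.84% for the small subunit, compared with 16.2% over all 16496 genes tested and 13.5% over the protein-coding ones. The members also had more counts, a median of 695 per gene compared with 230 over all genes tested, so that counting error alone gave 3.79% and 6.59%. Mrpl3 was the steadiest member, with 23.1, 22.9 and 22.4 CPM in the LP+/+ livers, 23.3 and 21.7 in the LPfl/+ livers and 21.8, 24.3 and 23.8 in the LP245/+ livers (coefficient of variation 3.99%). Mrpl28 followed with 4.21%. The most variable were Mrps34 (47.7%) and Mrpl12 (15.5%). In counts, the LP+/+ livers had 73, 28 and 42 for Mrps34, the LPfl/+ livers 44 and 52 and the LP245/+ livers 75, 58 and 9, an 8.55-fold range in CPM with the lowest and highest livers in the same genotype. Mrpl12, the stalk protein that also binds the mitochondrial RNA polymerase, had 27.9, 28.1 and 31.8 CPM in the LP+/+ livers, 35.3 and 36.4 in the LPfl/+ livers and 40.6, 27.5 and 28.2 in the LP245/+ livers. Its high livers were both LPfl/+ livers and LP245/+ replicate 1.

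**Figure D2:**
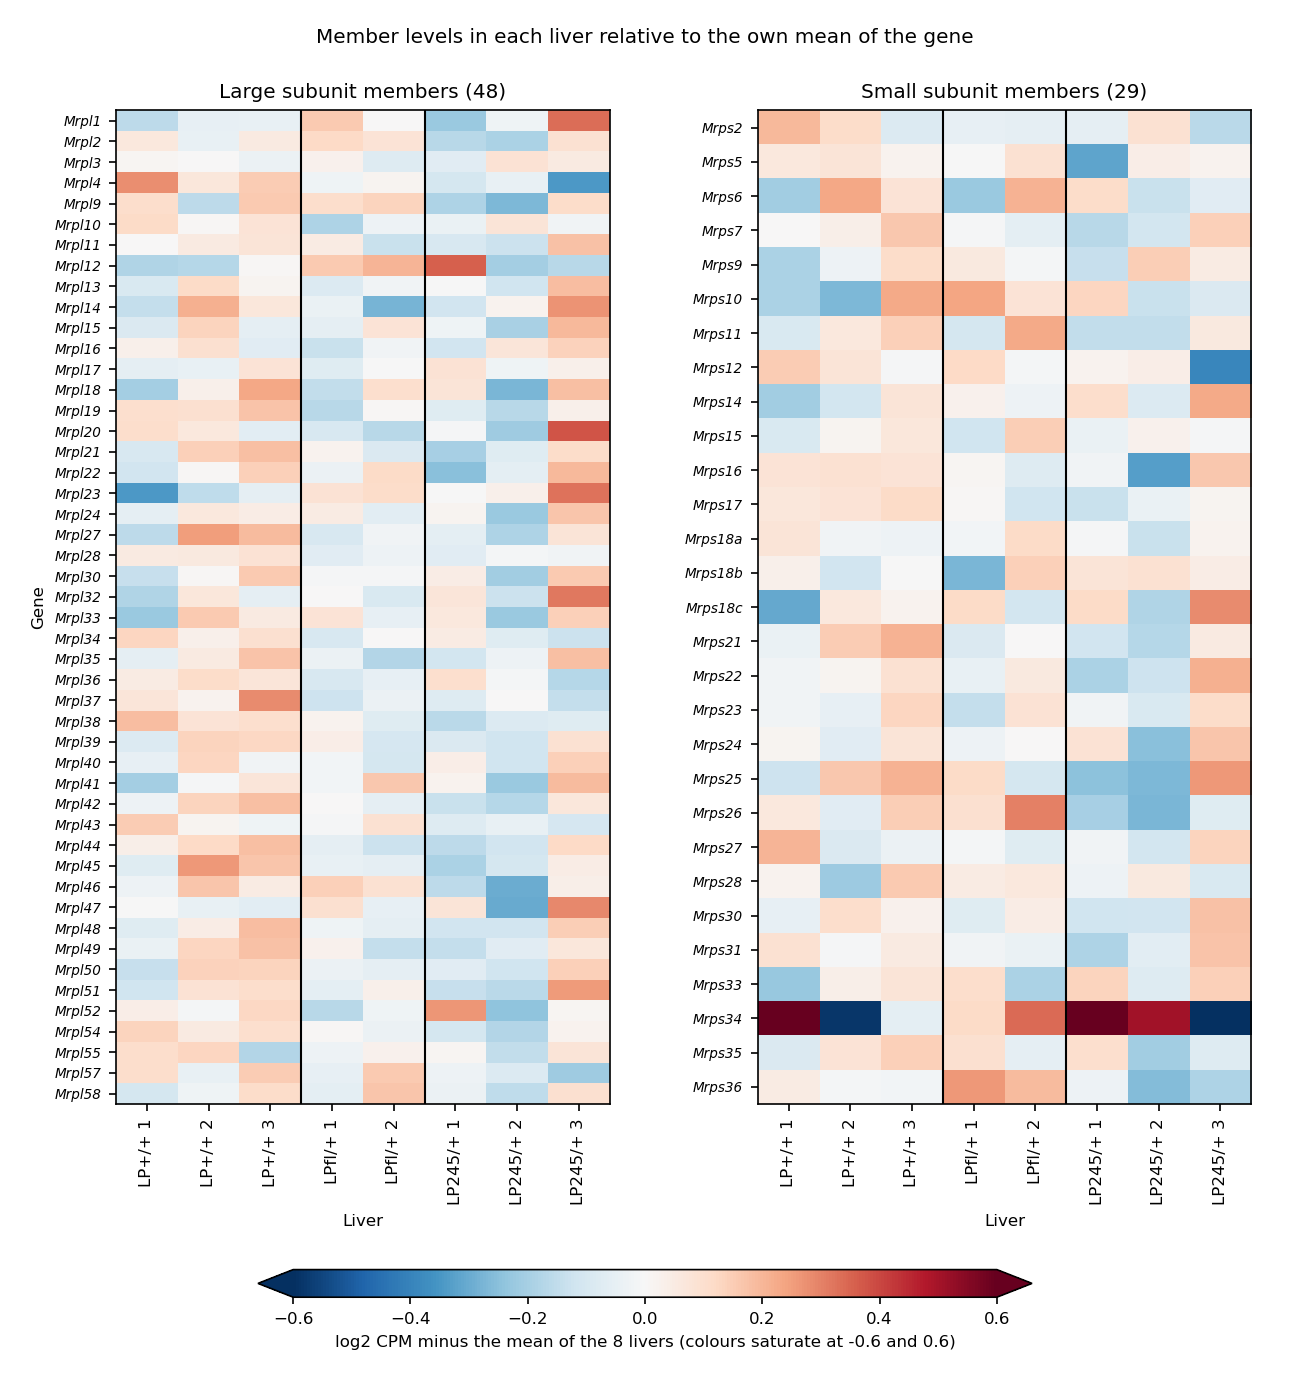
Level of each tested member in each of the 8 livers as log2 CPM minus the gene's own mean, for the large (48) and small (29) subunit. Red is above and blue below the mean. Most cells are pale, LP245/+ replicate 3 is mostly red and LP245/+ replicate 2 mostly blue, and Mrps34 runs past the colour scale in both directions.

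Summed over the large subunit, the members reached 1280, 1362 and 1385 CPM in the LP+/+ livers, 1286 and 1292 in LPfl/+ and 1256, 1203 and 1393 in LP245/+. The small subunit reached 621, 624 and 655 CPM in the LP+/+ livers, 619 and 622 in the LPfl/+ livers and 592, 584 and 640 in the LP245/+ livers. After TMM scaling the genotypes overlapped in both sums, and the lowest and the highest large subunit sums were both LP245/+ livers. Group means for the large subunit were 1342 ± 55.0 (SD, n = 3), 1289 ± 4.37 (n = 2) and 1284 ± 98.2 CPM (n = 3). The ratio of the sums was 2.06, 2.18 and 2.11 in LP+/+, 2.08 in both LPfl/+ livers and 2.12, 2.06 and 2.18 in LP245/+. Counting Mrps18a and Mrps30 with the large subunit and leaving out Mrps36, an assignment added after the data were seen, moved the mean ratio from 2.12 to 2.39 in LP+/+, from 2.08 to 2.35 in LPfl/+ and from 2.12 to 2.39 in LP245/+. The large and small subunit members moved together from liver to liver, LP245/+ replicate 2 being lowest and LP245/+ replicate 3 and LP+/+ replicate 3 being highest in both sums. The high place of LP245/+ replicate 3 depends on the TMM scaling. Its TMM factor was the lowest (0.937), and before scaling the members took 0.19% of its counts. On that unscaled share LPfl/+ replicate 2 was highest (0.204%) and LP245/+ replicate 2 again lowest (0.176%). Before scaling, every LP245/+ liver (0.176% to 0.191%) was below every LP+/+ liver (0.194% to 0.197%). The LPfl/+ livers, at 0.192% and 0.204%, lay below and above the LP+/+ range. The overlap of LP245/+ with LP+/+ in the sums thus depends on the scaling. In LP245/+ replicate 2, 14 of the 77 members were above their own mean, compared with 57 in replicate 3 of the same genotype. The cytosolic ribosomal protein genes were also lowest in LP245/+ replicate 2 (5665 CPM) and highest in LP245/+ replicate 3 (8040 CPM), the other livers ranging from 6642 to 7177 CPM. Its part in the sums of the members was not tested.

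**Figure D3:**
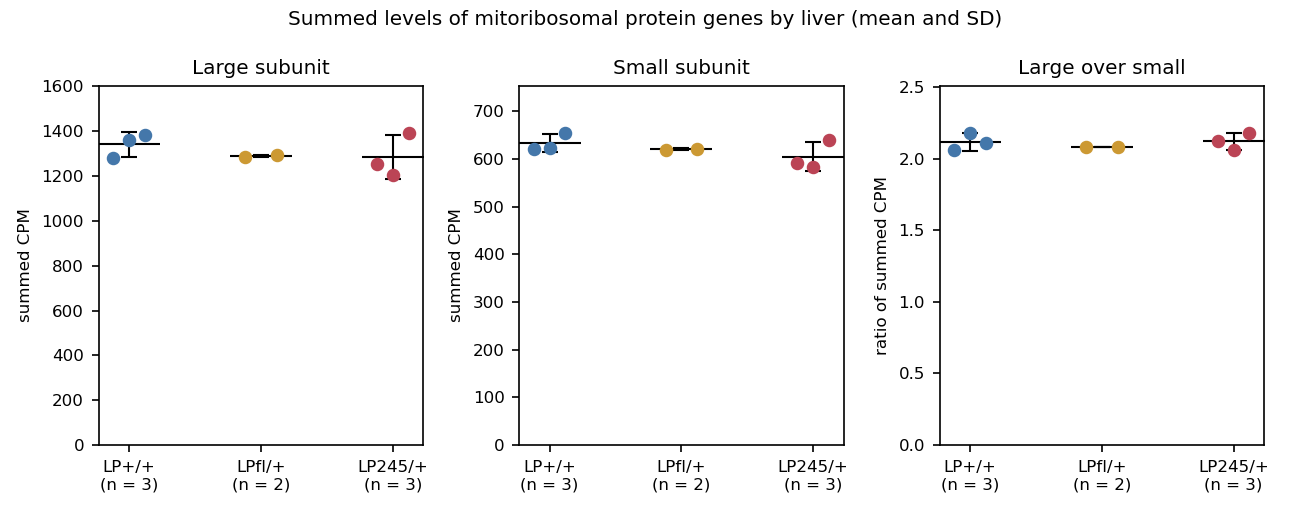
Summed CPM of the large subunit members, of the small subunit members, and the ratio of both sums, for each liver (points) with the mean and SD of each genotype. The LP245/+ livers span 1203 to 1393 CPM in the large subunit and enclose both LPfl/+ livers.

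The first comparison asked how livers with p53R245W differ from LP+/+. None of the 77 tested members passed the cutoff of an edgeR adjusted p of at most 0.05 and a log2 fold change of at least 1 in either direction, which 0.00606% of all genes passed, and the smallest adjusted p among members was 0.795. At an unadjusted p below 0.05, 2 members were lower, Mrpl4 and Mrpl38, and 0 were higher, compared with 2.38% and 3.55% of all genes. DESeq2 likewise called 0 members, and it called 0.0331% of the genes it tested. The median log2 fold change was -0.05 in the large and in the small subunit, and 0.00 over all genes. Estimates were below 0 for 35 of 48 large subunit and 21 of 29 small subunit members, together 72.7%, compared with 49.4% of all genes and 53.6% of protein-coding genes. The livers of both genotypes did not overlap for 12 members, 10 lower (5.08% of all genes) and 2 higher (6.47%), the latter being Mrpl23 and Mrps18b. The intervals were narrow. For 76 of the 77 members the 95% interval lay within 1 on the log2 scale on either side of 0 (73.7% of all genes), with Mrps34 the exception, and for 72 it lay within 0.5 (43.6%). Without LP245/+ replicate 3, whose sums were high after TMM scaling, 16 members had an unadjusted p below 0.05, all lower, compared with 3.51% lower and 4.24% higher of all genes in that fit. The median of the members was then -0.12, and 0 members passed the cutoff. Without LP245/+ replicate 1 the number was 1, lower (1.66% of all genes), and without LP+/+ replicate 1 it was 4, all lower (2.53% of all genes).

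**Figure D4:**
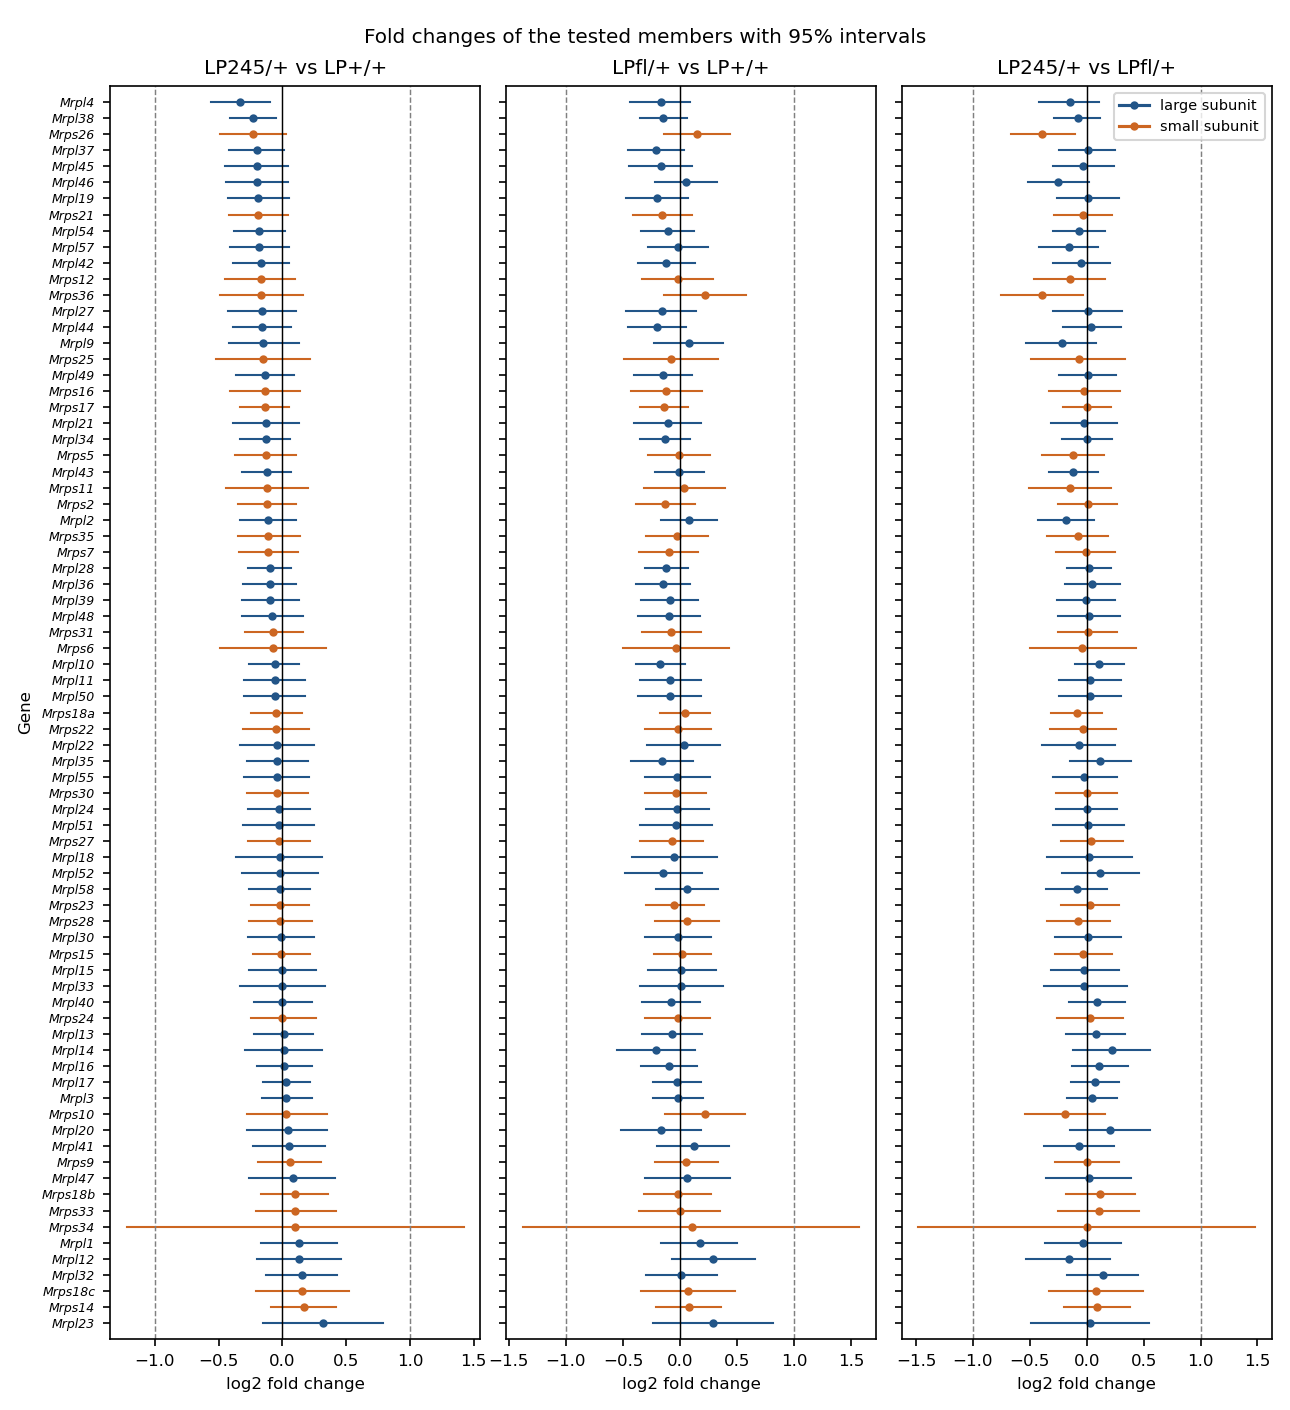
Log2 fold changes of the 77 tested members with 95% intervals from edgeR in the 3 pairwise comparisons, genes in the same order in each, blue for the large and orange for the small subunit. Dashed lines mark -1 and 1. Estimates lie between -0.39 and 0.32, and only the Mrps34 intervals reach past the dashed lines.

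Mrpl4 (ENSMUSG00000003299.10, chromosome 9, 21002738 to 21008839, plus strand), a protein of the peptide exit tunnel, had 30.4, 26.3 and 27.9 CPM in the LP+/+ livers, 24.6 and 25.3 in the LPfl/+ livers and 23.3, 24.3 and 19.8 in the LP245/+ livers. Every LP+/+ liver was above every LPfl/+ liver, and every LPfl/+ liver above every LP245/+ liver. Against LP+/+, the log2 fold change in LP245/+ was -0.33 (standard error 0.10, 95% interval -0.56 to -0.10, edgeR adjusted p = 0.795). By their library numbers the samples form 2 series, 1 of which holds all LP245/+ livers with LP+/+ replicates 2 and 3, and within that series the log2 ratio was -0.27. Mrpl38 (ENSMUSG00000020775.13, chromosome 11, 116131817 to 116138868, minus strand), a protein of the central protuberance, had 48.5, 45.1 and 45.7 CPM in the LP+/+ livers, 43.3 and 40.5 in the LPfl/+ livers and 38.1, 40.2 and 40.5 in the LP245/+ livers. The genotypes stood in the same order without overlap, although the lower LPfl/+ and the highest LP245/+ liver differ by less than the digits shown. Its log2 fold change was -0.23 (standard error 0.08, 95% interval -0.41 to -0.05, edgeR adjusted p = 0.795) and -0.20 within the series. Over all genes tested, 36 (0.218%) had livers in this full order and 42 (0.255%) in the reverse order, none of the latter a member.

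The study ranked genes on their descent over the genotypes, from LP+/+ (coded 1) over LPfl/+ (2) to LP245/+ (3), with slope and R2 taken on the average of each genotype. Here the line was fitted to the 8 single livers, which keeps the spread within a genotype in R2. On their counts divided by DESeq2 size factors, 4 members had a slope below -1 with an R2 above 0.6, all of the large subunit, and 0 had a slope above 1 with that R2. Among all 49585 genes, 0.506% descended and 0.629% ascended by this rule, and among the genes tested 1.35% and 1.44%. On the genotype averages 31 members descended and 8 ascended, and the shares over all genes were 7.02% and 7.18%, and over the genes tested 19.0% and 17.4%. On the single livers Mrpl38 had the highest R2 (0.824, slope -102 normalised counts per step), followed by Mrpl4 (0.737, slope -84.5), Mrpl54 (0.674, slope -34.7) and Mrpl28 (0.633, slope -39.7). Mrpl54 had 20.1, 18.9 and 19.6 CPM in the LP+/+ livers, 18.3 and 17.8 in the LPfl/+ livers and 17.0, 16.2 and 18.5 in the LP245/+ livers. Mrpl28 had 37.0, 37.1 and 37.9 CPM in the LP+/+ livers, 33.9 and 34.8 in the LPfl/+ livers and 34.0, 35.3 and 35.0 in the LP245/+ livers. In both genes the LP+/+ livers were above all others, while the LPfl/+ and LP245/+ livers overlapped. In edgeR's test of the trend 0 members had an adjusted p of at most 0.05 (0.0121% of all genes), and 2 had an unadjusted p below 0.05, Mrpl4 and Mrpl38, both lower (1.95% of all genes) and both with an adjusted p of 0.914, against 0 higher (3.16%). Without LP245/+ replicate 3 the number of descending members was 14, among them all 4 of these, while the share over all genes was 1.13% and over the genes tested 3.06%. Of the 4, only Mrpl38 descended in every setting tried. Mrpl4 and Mrpl28 did not descend with library totals in place of size factors. Mrpl28 also did not without LP245/+ replicate 1 or without any 1 LP+/+ liver, and Mrpl54 did not without LP+/+ replicate 1.

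**Figure D5:**
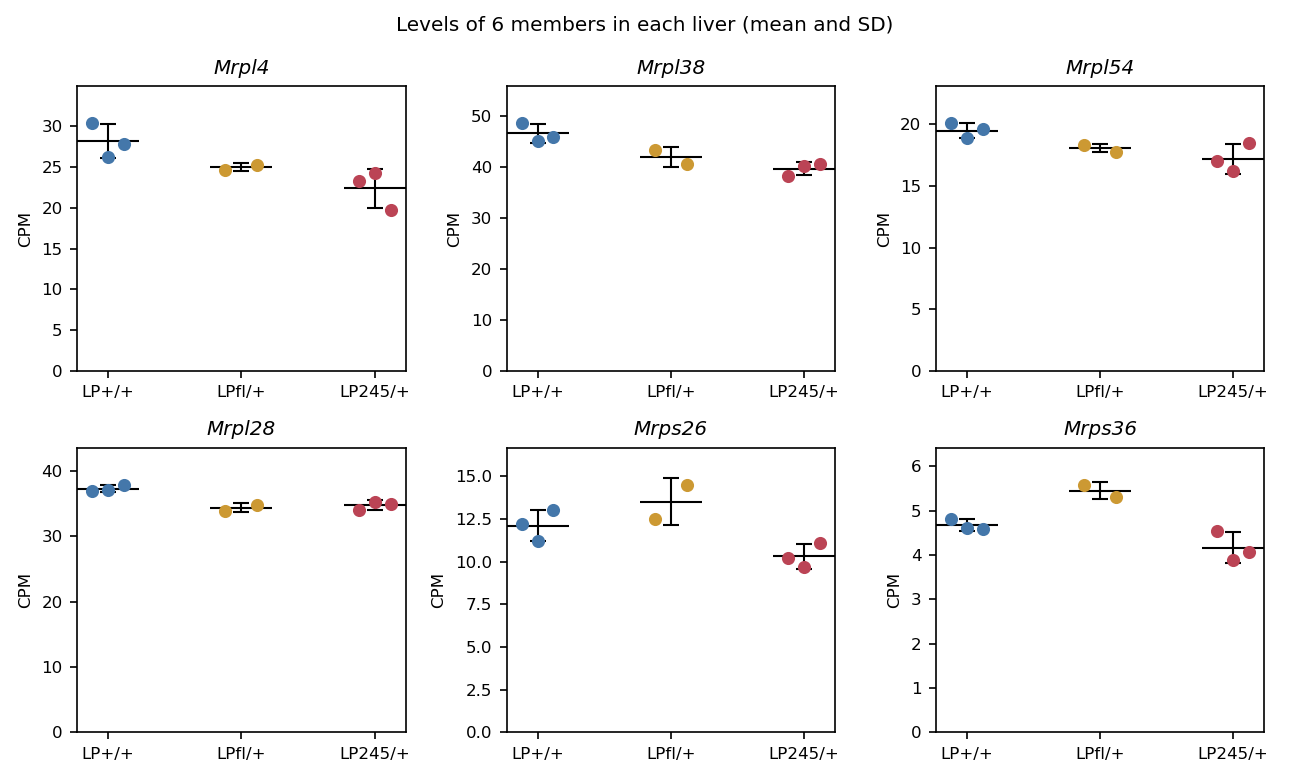
CPM in each liver (points) with the mean and SD of each genotype for the members past the slope and R2 thresholds (Mrpl4, Mrpl38, Mrpl54, Mrpl28) and for the 2 with the smallest unadjusted p in LP245/+ compared with LPfl/+ (Mrps26, Mrps36). Axes start at 0. For Mrps26 and Mrps36 both LPfl/+ livers lie above all 3 LP245/+ livers.

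Loss of 1 Trp53 allele, together with the presence of Cre, was compared next. In LPfl/+ compared with LP+/+, 0 members passed the cutoff (0.0% of all genes), the smallest adjusted p was 0.757 and 0 members had an unadjusted p below 0.05 (2.67% of all genes lower and 4.22% higher). DESeq2 gave the same 2 counts and called 0.0298% of the genes it tested. The median log2 fold change was -0.08 in the large and -0.02 in the small subunit. Of the 77 estimates, 53 were below 0 (68.8%, compared with 50.2% of all genes and 55.5% of protein-coding genes). The 95% interval lay within 1 of 0 for 76 members (68.9% of all genes) and within 0.5 for 68 (36.7%). The livers did not overlap for 16 members in the lower direction (12.4% of all genes) and 5 in the higher (12.6%), with 3 livers against 2. Those higher were Mrpl1, Mrpl2, Mrpl12, Mrpl23 and Mrps36, with log2 fold changes of 0.17, 0.08, 0.29, 0.29 and 0.22, and they are named after their values were seen. Among those lower were Mrpl37 (-0.21), Mrpl19 (-0.20) and Mrpl44 (-0.20), which are likewise outside the naming rule. The largest estimates were for Mrpl12 and Mrpl23, 0.29 each, with 95% intervals of -0.07 to 0.66 and -0.24 to 0.81, the second on only 37 to 57 counts per liver. The series of libraries that holds both LPfl/+ livers holds 1 LP+/+ liver, replicate 1, and with the series as a covariate the median over all members was 0.02.

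For p53R245W against loss of 1 allele, LP245/+ compared with LPfl/+, 0 members passed the cutoff (0.0% of all genes), and the smallest adjusted p was 0.468. The median log2 fold change was 0.00, with 38 members below 0 (49.4%, compared with 49.2% of all genes) and 39 above. The 95% interval lay within 1 of 0 for 76 members (68.1% of all genes) and within 0.5 for 66 (35.9%). The livers did not overlap for 6 members, all lower (13.3% of all genes, with 12.1% higher). At an unadjusted p below 0.05, 2 members were lower (4.44% of all genes) and 0 higher (4.07%), and DESeq2 called 0 members (0.185% of the genes it tested), with 1 member, lower, at that level (2.01%). The 2 in edgeR were Mrps26 (ENSMUSG00000037740.8, chromosome 2, 130563742 to 130568695, plus strand) and Mrps36 (ENSMUSG00000061474.11, chromosome 13, 100735955 to 100744659, minus strand), both with small subunit symbols. In counts, the LP+/+ livers had 360, 331 and 392 for Mrps26, the LPfl/+ livers 349 and 405 and the LP245/+ livers 277, 269 and 311. Every LP245/+ liver was below every liver of the other genotypes. In CPM the gap to LP+/+ was small, with 11.1 in LP245/+ replicate 3 and 11.2 in LP+/+ replicate 2. The log2 fold change was -0.39 (standard error 0.13, edgeR adjusted p = 0.468) against LPfl/+ and -0.23 (standard error 0.12, adjusted p = 0.831) against LP+/+. For Mrps36 the LP+/+ livers had 142, 137 and 139 counts, the LPfl/+ livers 156 and 149 and the LP245/+ livers 124, 108 and 114. Here too the LP245/+ livers were lowest, although in CPM LP245/+ replicate 1 (4.55) was close to LP+/+ replicate 3 (4.6). The log2 fold change against LPfl/+ was -0.39 (standard error 0.16, edgeR adjusted p = 0.551). No series of library numbers held both of these genotypes, so these livers alone cannot tell genotype and series apart, and only LP+/+ livers link the series. The comparison had no member at an unadjusted p below 0.05 once the series was a covariate.

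The paralogues Mrps18a, Mrps18b and Mrps18c encode related proteins that take separate places in the ribosome. On the principal transcript they reached 30.5, 13.8 and 13.9 CPM per kb, and 30.5% of the exon bases of Mrps18b and 23.2% of those of Mrps18c are shared with another gene. Their log2 fold changes in LP245/+ compared with LP+/+ were -0.05, 0.10 and 0.15, with standard errors of 0.09, 0.12 and 0.16. Without any 1 liver they ran from -0.09 to 0.00, from 0.05 to 0.13 and from 0.03 to 0.27, the last being lowest without LP245/+ replicate 3 and highest without LP245/+ replicate 2. Mrpl41 had a log2 fold change of 0.05 (95% interval -0.23 to 0.33) and Mrps12 of -0.17 (-0.45 to 0.10) in that comparison. Mrps12 was between 23.5 and 26.3 CPM in 7 livers and at 18.0 in LP245/+ replicate 3, without which its log2 fold change was -0.06. For Mrpl58, a hydrolase that frees stalled peptides and is built into the large subunit, the value was -0.02 (standard error 0.11).

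Genes that work with the mitoribosome were read from the same fit. None of the 6 mitoribosome proteins with other symbols, 13 translation factors, 20 genes of tRNA charging, 27 assembly and rRNA modification factors, 13 genes of mitochondrial transcription and mRNA stability, 9 regulators of mitochondrial biogenesis and 2 mitochondrial rRNAs passed the cutoff in any of the 3 comparisons. Among proteins of the ribosome itself, Dap3 had 25.8, 28.1 and 26.4 CPM in the LP+/+ livers, 23.0 and 21.8 in the LPfl/+ livers and 25.0, 25.2 and 25.5 in the LP245/+ livers. It was lowest in LPfl/+, with a log2 fold change of -0.26 compared with LP+/+ (standard error 0.09, edgeR adjusted p = 0.697). Ptcd3, another small subunit protein, stayed between 43.5 and 48.5 CPM.

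Among the assembly factors, Ngrn, which is needed for the large subunit rRNA, had 21.5, 15.1 and 16.3 CPM in the LP+/+ livers, 22.0 and 21.1 in the LPfl/+ livers and 11.6, 13.4 and 15.0 in the LP245/+ livers. The LP245/+ livers were below all others, with log2 fold changes of -0.69 against LPfl/+ (standard error 0.16, edgeR adjusted p = 0.362) and -0.40 against LP+/+ (standard error 0.15, adjusted p = 0.795). Ngrn also followed the library series. The series with both LPfl/+ livers and LP+/+ replicate 1 had 21.1 to 22.0 CPM, and the other series 11.6 to 16.3. Against LPfl/+ the LP245/+ livers alone cannot tell genotype and series apart, and only LP+/+ livers link the series. Rbfa, a maturation factor of the small subunit, had -0.31 against LP+/+ (standard error 0.11, edgeR adjusted p = 0.795). Mettl15 and Mettl17, methyltransferase family proteins linked to the small subunit, had -0.67 (standard error 0.24, adjusted p = 0.697) and -0.38 (standard error 0.17, adjusted p = 0.721) in LPfl/+ compared with LP+/+. Of the translation factors, the release factor Mtrf1l had 0.53 in LP245/+ compared with LPfl/+ (standard error 0.17, edgeR adjusted p = 0.428) and 0.37 compared with LP+/+ (standard error 0.15, adjusted p = 0.806). The threonyl-tRNA synthetase Tars2 had -0.24 (standard error 0.10, adjusted p = 0.709) and the transcription terminator Mterf1a 0.47 (standard error 0.21, adjusted p = 0.721) in LPfl/+ compared with LP+/+.

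Of the regulators, the factors behind the NRF1, ETS and YY1 letters had small estimates. In LP245/+ compared with LP+/+, Nrf1 had a log2 fold change of 0.07, Gabpa of 0.09 and Yy1 of 0.09, each with a standard error of 0.09. The coactivator Ppargc1a, which has no motif of its own here, had 0.08 (standard error 0.25). Ppargc1b, from the same list, had 0.39 in LPfl/+ compared with LP+/+ (standard error 0.25, edgeR adjusted p = 0.782). It had 0.40 in LP245/+ compared with LP+/+ (standard error 0.22, edgeR adjusted p = 0.831). Myc, whose CACGTG box was also counted, had -0.60 there (standard error 0.61), 1.32 in LPfl/+ compared with LP+/+ (standard error 0.62, edgeR adjusted p = 0.736) and -1.92 in LP245/+ against LPfl/+ (standard error 0.64, edgeR adjusted p = 0.465). Counts of 71, 30 and 37 in the LP+/+ livers, 32 and 185 in the LPfl/+ livers and 23, 40 and 22 in the LP245/+ livers show that LPfl/+ replicate 2 alone was high and that the genotypes overlapped.

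The rRNAs of the mitoribosome, made inside the mitochondrion, were read beside its proteins. mt-Rnr2, the large subunit rRNA, had 35600, 35500 and 30800 CPM in the LP+/+ livers, 57900 and 40400 in the LPfl/+ livers and 43200, 41400 and 66100 in the LP245/+ livers, and mt-Rnr1, the small subunit rRNA, ranged from 7400 to 9230 CPM in LP+/+, 9050 to 10600 in LPfl/+ and 9020 to 11400 in LP245/+. Every Cre-positive liver was above every LP+/+ liver for mt-Rnr2, where Cre and the Trp53 lesion cannot be told apart, and the genotypes overlapped for mt-Rnr1. The log2 fold changes in LP245/+ compared with LP+/+ were 0.56 for mt-Rnr2 (standard error 0.21, edgeR adjusted p = 0.795) and 0.37 for mt-Rnr1 (standard error 0.15, edgeR adjusted p = 0.808), and in LPfl/+ mt-Rnr2 had 0.53 (adjusted p = 0.721). The protein genes of the mitochondrial genome summed to 22297 to 24342 CPM in LP+/+, 25786 to 27801 in LPfl/+ and 26011 to 30266 in LP245/+. The difference between rRNA and protein gene changes was not tested, and neither was the part of rRNA removal during library preparation.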

How the data were processed

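RNA of 8 livers was sequenced by the study from stranded total RNA libraries. The authors deposited raw counts per gene, not normalized, made with STAR on GRCm38 per the labels. The values used here were the deposited counts of 49585 genes, of which 49326 identifiers were matched to a GENCODE M21 symbol, 5577 of them without the version number. All 8 columns matched a sample label. Genotypes were compared with edgeR 4.0.16 under R 4.3.3 (quasi-likelihood F test, TMM, filterByExpr, 8 livers in 1 fit), with Benjamini-Hochberg adjustment over the 16496 genes tested. A gene was called at an adjusted p of at most 0.05 and a log2 fold change at or past 1 in either direction. Slopes used DESeq2 1.42.0 size factors. The scripts were tested on simulated data. Promoters were taken from RefSeq, and figures were drawn with matplotlib.

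The members and lists were chosen with earlier results of these data known. Members were named by level per kb, coefficient of variation, smallest unadjusted p below 0.05, order over the genotypes and a list of fixed names, and from each list at most 2 genes per direction. Nrf1, Gabpa, Yy1, Ppargc1a, Ptcd3, Mrps25 and Mrpl58 are outside that rule and were chosen after their values were seen. The labels give replicate numbers, but same-numbered livers of different genotypes were correlated in their deviations by only -0.082 to 0.034, and no pairing was assumed. The labels do not say that livers came from separate litters, and p-values measure the spread between these livers. Of the 28 pairs of libraries none agreed within sampling noise. In the gene lists 4 names had no match, Ict1, Mtres1, Gtpbp5 and Fastkd4.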

Additional observations from a re-analysis of the deposited data

How the results depend on the processing

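In every comparison 0 members passed the cutoff with DESeq2, with other size factors, without a filter or with at least 10 counts in every liver. The same held with only the 2 genotypes compared, with the library series as a covariate and without any 1 LP+/+ or LP245/+ liver. Over all genes, DESeq2 called 0.0298% to 0.185%, and the fits without a filter 0.0463% to 0.403%. Other size factors and the filter of 10 counts called at most 0.0072%. The share was 0.0% to 0.317% with only the 2 genotypes, 0.0182% to 0.0606% with the series and 0.0% to 0.362% without 1 such liver. With the replicate number as a block, 0 members passed as well, the medians of the members were -0.062, -0.023 and -0.056 in the 3 comparisons, and over all genes the block left 0 calls in place of 1 (Cdkn1a), 0 and 0. With the series as a covariate the median in LP245/+ compared with LPfl/+ moved from 0.0 to -0.106, where only LP+/+ livers link the series. Without 1 liver the medians ran from -0.124 to -0.022, from -0.08 to -0.035 and from -0.072 to 0.029. The number of descending members was 7 with library totals, 31 on averages of the genotypes and 4 to 14 without 1 liver, while the share over all genes, 0.506% on the 8 livers, was 0.466%, 7.02% and 0.645% to 1.13%. That of ascending members was 8 on averages and 0 to 1 without 1 liver, with 7.18% and 0.823% to 1.29% over all genes. In LP245/+ compared with LP+/+ the sign turned for Mrpl12 (-0.08 without LP245/+ replicate 1, up to 0.23 without another liver), for Mrpl41 (-0.03 with the series as a covariate, -0.03 without LP+/+ replicate 1 and -0.07 without LP245/+ replicate 3, up to 0.15) and for Mrps34 (-0.12 with the block, -0.18 and -0.0 without LP+/+ replicates 2 and 3, -0.42 and -0.06 without LP245/+ replicates 1 and 2, up to 0.58). The cause was not tested. With 2 or 3 livers a genotype the median standard error of a member was 0.11 to 0.12 on the log2 scale, which limits the differences that could be shown.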
